A study of Mus musculus with 19 samples.

Results

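Collagen chain genes encode the alpha chains of the collagens, and 35 of them are described here across 19 RNA-seq libraries. The members are the protein-coding mouse genes whose GENCODE symbol has the form Col, number, a, number and that held at least 10 raw reads in 2 or more libraries. Of the 55401 genes in the files, 44 carried such a symbol, and 35 of these met the minimum. All 35 also passed the filter on low counts that preceded the tests. By type they are 11 fibrillar chains, 8 network-forming chains (types IV, VIII and X), 5 type VI chains and 11 other chains. The other chains comprise 6 fibril-associated collagens, 2 multiplexins, 2 transmembrane collagens and 1 anchoring-fibril collagen. The 9 symbols below the minimum were Col4a3, Col6a6, Col9a1, Col9a2, Col13a1, Col19a1, Col25a1, Col26a1 and Col28a1.

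The study concerns how the transcription factors ATF4 and CEBPγ act together in the integrated stress response. All groups were C2C12 cells with the genotype labelled WT, an established mouse myoblast line, that is, a line of skeletal muscle precursor cells. Vehicle groups received DMSO for 2, 6 or 12 h and drug groups received 100 nM thapsigargin for the same times. Thapsigargin blocks the calcium pump of the endoplasmic reticulum and thereby disturbs protein folding there. The recovery group had 6 h of thapsigargin and then 48 h in drug-free medium, and no vehicle group was matched to it in total time, so its differences from the other groups and those of longer culture cannot be told apart. Each group held 3 libraries, except the 12 h vehicle and drug groups with 2 each. Nothing in the labels ties the libraries of a group to separate cultures, and the p-values therefore reflect the scatter of these libraries alone, which may be technical.

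Collagen alpha chains are made in the endoplasmic reticulum, where they are hydroxylated on proline and lysine and wind together into a helix before secretion, trimming and crosslinking in the matrix. Fibrillar collagens form the load-bearing fibres, type IV forms the sheet-like network of basement membranes, and fibril-associated collagens and multiplexins attach to fibres or basement membranes. Type VI, built from the chains of Col6a1, Col6a2 and Col6a3, forms beaded microfilaments around muscle fibres, and defects in these genes cause inherited muscle disease.

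Levels are given as CPM, a gene's reads relative to the TMM-normalised gene reads of its library. Gene reads per library ranged from 17305962 to 40964140, with the 12 h libraries lowest, at 17305962 to 21825491. Genes of the stress response moved as labelled: Hspa5, the chaperone BiP, was 777 CPM in vehicle and 3271 CPM in drug at 2 h, 1247 and 12876 CPM at 6 h, 785 and 14099 CPM at 12 h, and 683 CPM in recovery. Ddit3, the stress factor CHOP, was 4.35, 4.44 and 4.01 log2 units higher in drug than in vehicle at 2, 6 and 12 h, and Atf4 2.03, 1.52 and 1.59 log2 units higher. In 17 libraries 1.41% to 3.07% of the reads were mitochondrial, against 15.8% in vehicle at 2 h replicate 3 and 14.9% in recovery replicate 1. The libraries also differed in how their levels ran with transcript length and GC content. Long minus short transcripts gave 0.66 to 1.15 log2 units at 2 h, -1.41 to -0.08 at 6 h, 0.44 to 0.67 at 12 h and -1.60 to -0.13 in recovery. All 6 myoblast markers were detected in every group, with summed levels of 2058 to 3558 CPM in vehicle and 1408 to 2500 CPM in drug at 6 h, and of 554 to 579 CPM and 657 to 725 CPM at 12 h. By the test described below, 1 of the 6 was higher in drug and 3 lower at 6 h, and 1 and 2 at 12 h. Of all tested genes, 13.0% were higher and 8.79% lower at 6 h, and 6.29% and 6.77% at 12 h. In bulk RNA, fewer cells of a type and less RNA per cell cannot be told apart.

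The type VI chains carried the steepest losses among the abundant members, and the sequences before their starts are shown for that reason. Col6a1 (ENSMUSG00000001119) lies on the minus strand at chr10:76708792-76726168 of GRCm38, Col6a2 on the same strand at chr10:76595762-76623630, with 85161 bases between them, and Col6a3 on the minus strand at chr1:90765923-90843971. The 250 bases before each RefSeq start, written 5′ to 3′ on the gene's strand, occupy chr10:76726045-76726294 for Col6a1, chr10:76623631-76623880 for Col6a2 and chr1:90843972-90844221 for Col6a3. Capitals mark a match to a searched motif, here the GC box on the reverse strand. Col6a2 has another RefSeq start in the table, whose 250 bases at chr10:76623405-76623654 are not shown; the windows of 300 bases held 1 GC box for the start shown, which matches the GENCODE start, and 3 for the other. The Col6a1 window overlaps the longer GENCODE gene model, whose start lies further upstream than the RefSeq start used.
Col6a1: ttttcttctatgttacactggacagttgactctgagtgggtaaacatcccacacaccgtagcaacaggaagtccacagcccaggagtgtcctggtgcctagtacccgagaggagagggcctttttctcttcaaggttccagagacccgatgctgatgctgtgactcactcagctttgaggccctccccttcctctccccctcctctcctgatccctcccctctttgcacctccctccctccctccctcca
Col6a2: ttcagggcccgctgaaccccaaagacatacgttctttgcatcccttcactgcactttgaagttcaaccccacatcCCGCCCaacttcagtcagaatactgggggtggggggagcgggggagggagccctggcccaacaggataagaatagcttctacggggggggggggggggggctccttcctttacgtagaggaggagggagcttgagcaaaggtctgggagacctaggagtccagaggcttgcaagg
Col6a3: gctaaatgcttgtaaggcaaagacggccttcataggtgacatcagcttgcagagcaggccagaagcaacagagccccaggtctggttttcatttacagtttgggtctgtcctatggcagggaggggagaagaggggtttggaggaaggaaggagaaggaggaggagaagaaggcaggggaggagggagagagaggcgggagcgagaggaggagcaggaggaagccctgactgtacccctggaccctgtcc

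RefSeq windows of 300 bases (250 before and 50 after a start, GRCm38.p6) were matched for 28 of the 35 members, giving 30 windows. They were searched on both strands. The endoplasmic reticulum stress element, CCAAT and CCACG with 9 bases between them, was in 0 of the 30 windows and in 0.119% of all 32851 windows. TGATGNAA, the composite site of ATF4 and CEBP factors, was in 0 of the 30 and in 3.97% of all windows. CCAAT alone, which also opens the stress element, was in 11 of the 30 and in 37.4% of all. The GC box GGGCGG was in 20 of the 30 and in 35.7% of all, and TATAAA in 4 of the 30 and in 13.6% of all. A match is a run of letters and not a bound site, and the windows leave out enhancers and other starts.

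The head-to-head pair Col4a1 and Col4a2 is shown because their gene models overlap at their starts. Col4a1 runs on the minus strand at chr8:11198423-11312826 and Col4a2 on the plus strand at chr8:11312805-11449287. The stretch chr8:11312801-11312830, read 5′ to 3′ on the plus strand, holds the 22 shared bases in capitals.
Col4a1/Col4a2: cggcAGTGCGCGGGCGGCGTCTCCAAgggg
Whether the counting used strand is not given in the sources used here, so reads in such overlaps cannot be assigned to either gene. For 11 members an exon overlapped one of another gene.

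Under thapsigargin, the members with a mean level of at least 5 CPM that changed all fell, and every member that rose was scarcer. A gene was called changed at an adjusted p below 0.05, with edgeR's quasi-likelihood test and Benjamini-Hochberg adjustment over 18039 genes. After 2 h, 0 members rose and 3 fell, where 3.01% of all tested genes were called higher and 1.51% lower. After 6 h, 9 rose and 10 fell, against a background of 13.0% higher and 8.79% lower. After 12 h, 3 rose and 14 fell, where 6.29% of all genes were called higher and 6.77% lower. The 12 h groups held 2 libraries each, so a fit that leaves out a 12 h library has no replicate in that group. For calls lost in such fits, a weak difference and the missing replicate cannot be told apart. The members' median log2 difference, drug minus vehicle, was -0.30 at 2 h, 0.34 at 6 h and -0.80 at 12 h, beside -0.04, 0.01 and 0.01 over all tested genes. With only the 6 h groups filtered and fitted, 15080 genes were tested and the members' median at 6 h was -0.12. With total-count scaling, Col1a1, Col3a1, Col4a1 and Col8a2 lost their calls at 6 h (adjusted p 0.052 to 0.09), as did Col1a1, Col5a1, Col8a1, Col12a1, Col16a1 and Col17a1 at 12 h (0.052 to 0.33). Without the filter on low counts, Col11a2 lost its call at 6 h (0.085) and Col5a1, Col7a1 and Col17a1 at 12 h (0.052 to 0.27), and with length and GC offsets Col5a1 and Col17a1 did at 12 h (0.17 and 0.067).

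Split by mean level over the 19 libraries, 17 members lay at or above 5 CPM and 18 below. At 6 h, 0 of the 17 more abundant members rose and 9 fell, while 9 of the 18 scarcer members rose and 1 fell. Col6a5, among these 9, reached 10 reads in 2 libraries, both of 6 h drug. It counts as a member only through the group where it was high, and its rise is a description. Col6a4, also among these 9, reached 10 reads in 4 libraries, including every 6 h drug library. Without that group it would not be a member, so its rise is a description as well. The median log2 difference at 6 h was -1.15 in the more abundant set and 1.60 in the scarcer set. At 12 h, 0 rose and 13 fell among the more abundant members, and 3 rose and 1 fell among the scarcer ones. Some scarcer members lay near 0 in vehicle. Over the 6 h vehicle libraries Col2a1 had 5 reads and Col6a5 had 0. A fall from such levels could hardly be called, so the scarcity of falls in this set follows in part from its low level. The line at 5 CPM lies between Col17a1, with a mean of 3.66 CPM, and Col4a5, with 9.46 CPM. The shares of all tested genes were not split by level. Whether this division by level is particular to collagen genes was therefore not tested.

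**Figure D1:**
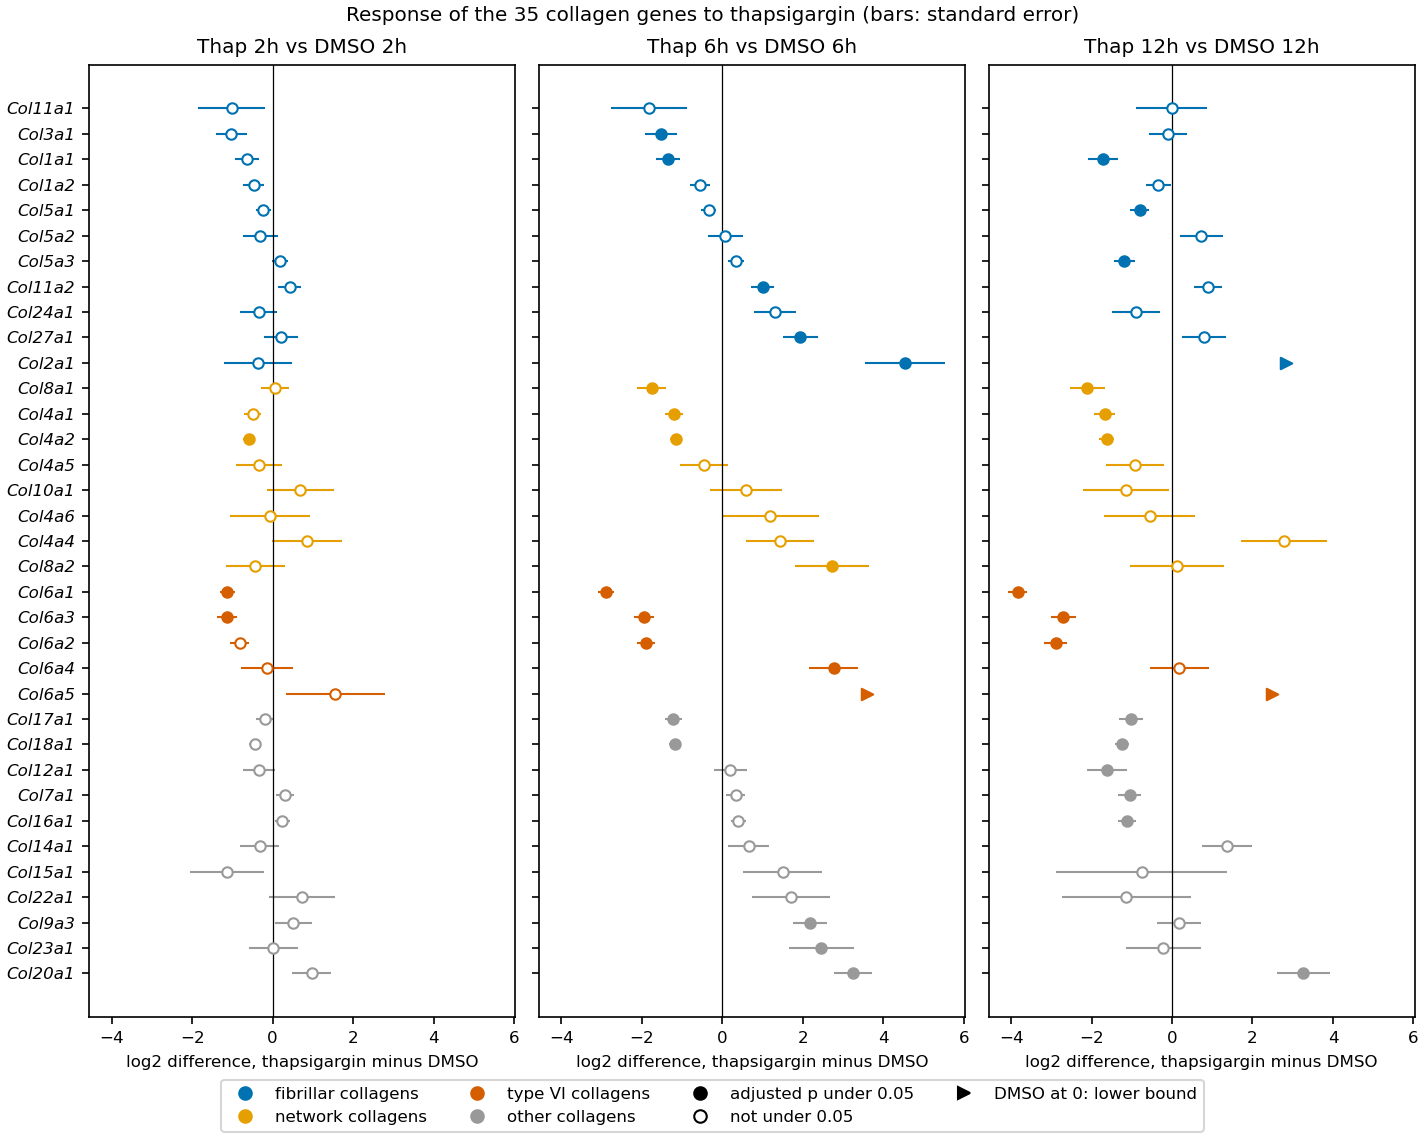
Log2 difference, thapsigargin minus DMSO, for each of the 35 collagen genes at 2, 6 and 12 h (points, bars give the standard error). Triangles without bars give a lower bound where vehicle had no read, for Col6a5 at 6 and 12 h and Col2a1 at 12 h. The type VI chains Col6a1, Col6a2 and Col6a3 lie at -2.89, -1.90 and -1.95 at 6 h, while Col2a1 lies at 4.55.

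**Figure D2:**
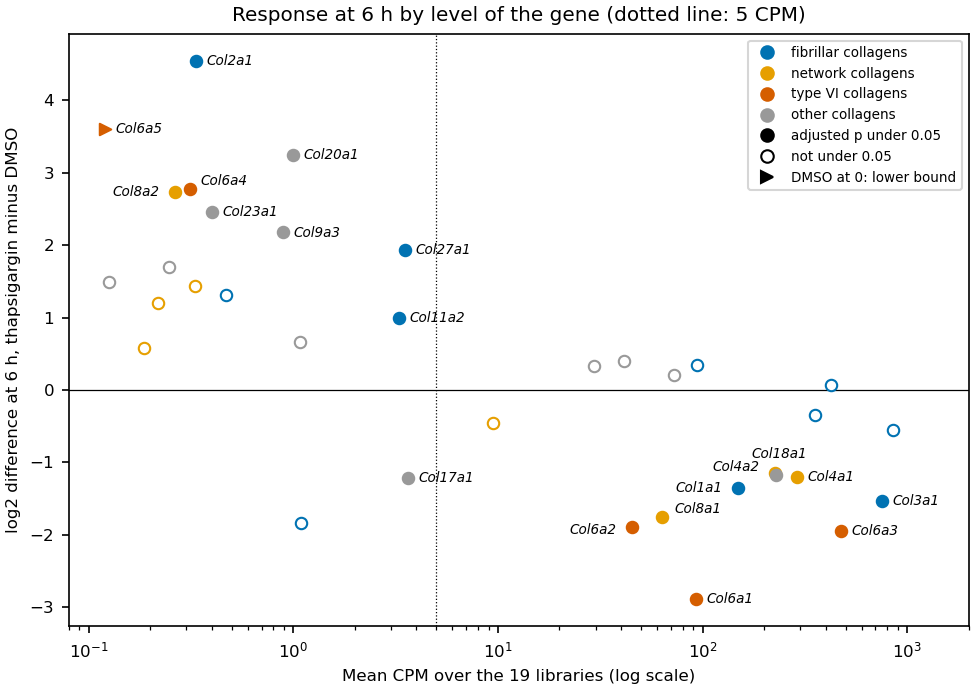
Log2 difference at 6 h (vertical axis) against the mean CPM over the 19 libraries on a log scale (horizontal axis), 1 point a gene, with a dotted line at 5 CPM. Col6a5, with no read in vehicle, is a triangle at its lower bound. To the right of the line 0 genes were called higher and 9 lower, and to the left 9 were called higher and 1 lower.

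The summed level of the 35 members was 5578 ± 312 CPM (SD, n = 3) in vehicle and 3621 ± 91.6 CPM (n = 3) in drug at 2 h. At 6 h it was 4005 ± 561 CPM and 2253 ± 295 CPM (n = 3 each), and at 12 h 6108 ± 205 CPM and 4054 ± 270 CPM (n = 2 each). Recovery libraries held 2902, 5798 and 4723 CPM, the first value being that of the library with the high mitochondrial share. Type VI chains made up 14.5%, 14.7% and 15.9% of collagen reads in the 6 h vehicle libraries and 6.52%, 6.74% and 6.61% in the 6 h drug libraries. At 12 h their share was 16.1% and 16.6% in vehicle and 3.18% and 3.77% in drug. In recovery it was 20.03%, 18.3% and 17.4%, above every other library's share at 6 and 12 h and within the 17.0% to 23.5% of 2 h vehicle. In 2 h drug it was 13.2% to 14.2%. Fibrillar chains held on average 57.2% of collagen reads in vehicle and 67.2% in drug at 6 h, and 62.1% and 85.6% at 12 h. These shares are sums over genes of a type and were not tested.

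**Figure D3:**
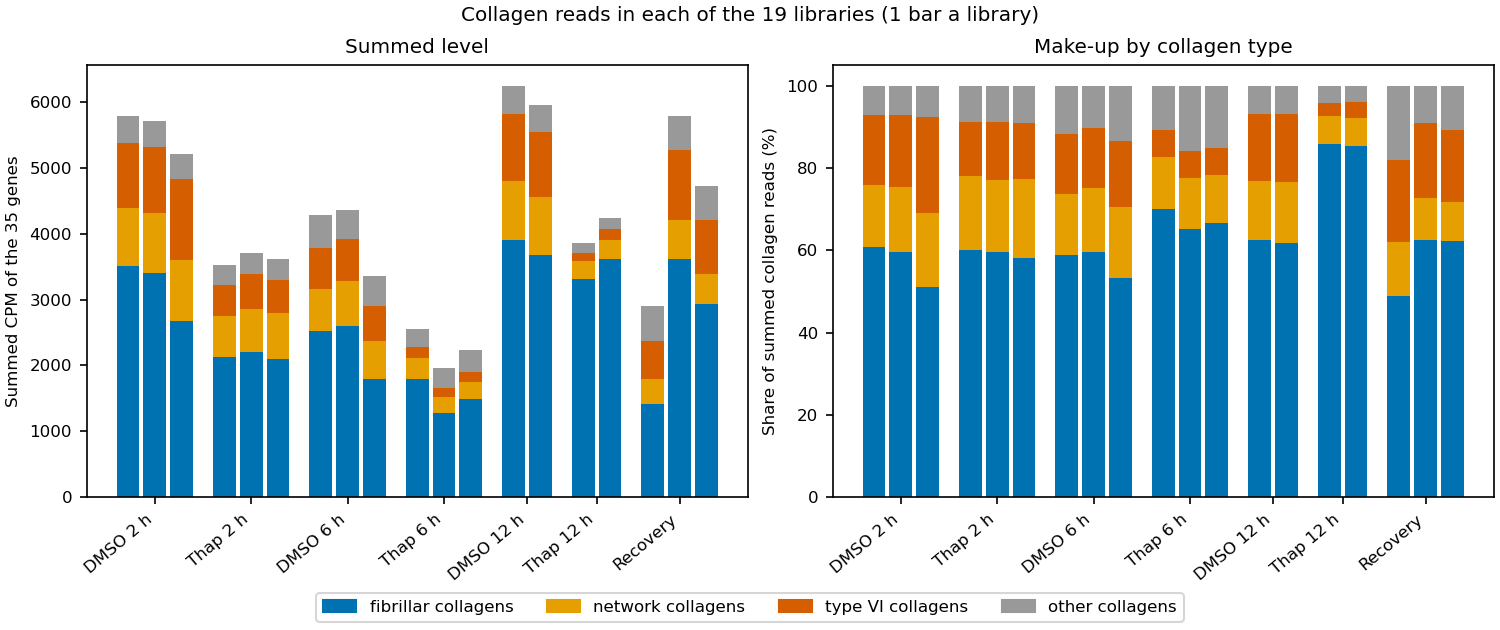
Summed CPM of the collagen genes by type and the share of collagen reads by type, 1 bar for each of the 19 libraries. The type VI share is 14.5% to 15.9% in 6 h vehicle and 6.52% to 6.74% in 6 h drug libraries, and 16.1% to 16.6% against 3.18% to 3.77% at 12 h.

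Among the type VI chains, Col6a1, Col6a2 and Col6a3 fell and 2 scarce chains rose. At 2 h, 0 of the 5 rose and 2 fell. At 6 h 2 rose and 3 fell, and at 12 h 1 rose and 3 fell. The median log2 difference of the 5 was -0.82, -1.90 and -2.70 at the 3 times.

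Col6a1, the alpha-1 chain, had 147, 147 and 156 CPM in 2 h vehicle and 64.5, 75.1 and 66.7 CPM in 2 h drug. At 6 h it had 76.9, 71.9 and 54.2 CPM in vehicle and 9.13, 7.99 and 10.3 CPM in drug. Its 12 h libraries held 148 and 133 CPM in vehicle and 8.56 and 11.1 CPM in drug. Drug and vehicle libraries were apart at each time, and vehicle itself was lowest at 6 h. Col6a1 fell by 1.13 ± 0.19 (log2, SE; adjusted p = 0.0028) at 2 h, by 2.89 ± 0.19 (adjusted p = 1.6e-07) at 6 h and by 3.83 ± 0.24 (adjusted p = 2.7e-07) at 12 h. It was the 1 member that fell further at 6 h than at 2 h by the test of the difference between the responses, which was -1.76 ± 0.27 (adjusted p = 0.0015).

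Col6a2, the alpha-2 chain, had 58.2, 60.8 and 94.7 CPM in 2 h vehicle, the last being the library of high mitochondrial share, and 39.99, 42.8 and 38.4 CPM in 2 h drug. That difference, -0.82 ± 0.23, missed the threshold (adjusted p = 0.061). At 6 h the vehicle libraries held 41.4, 35.6 and 41.6 CPM and the drug libraries 7.92, 11.5 and 12.4 CPM. At 12 h the levels were 38.8 and 36.0 CPM against 4.23 and 5.83 CPM. Col6a2 fell by 1.90 ± 0.23 (adjusted p = 4.2e-05) at 6 h and by 2.89 ± 0.29 (adjusted p = 1.2e-05) at 12 h, and its drug and vehicle libraries did not overlap at any time.

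Col6a3, which encodes the large alpha-3 chain, was the most abundant type VI gene. Its 6 h vehicle libraries held 505, 533 and 438 CPM and the drug libraries 148, 112 and 123 CPM. The 12 h levels were 820 and 819 CPM in vehicle and 109 and 142 CPM in drug. Col6a3 fell by 1.13 ± 0.25 (adjusted p = 0.018) at 2 h, by 1.95 ± 0.25 (adjusted p = 6.7e-05) at 6 h and by 2.70 ± 0.31 (adjusted p = 4.1e-05) at 12 h, with no overlap at any time. At 2 h its call was lost without vehicle replicate 3 and without each of drug replicates 1, 2 and 3, with adjusted p from leaving out each library reaching 0.097. With total-count scaling, the 2 h calls of Col6a1, Col6a3 and Col4a2 were all lost.

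Col6a4 and Col6a5, chains that can take the place of alpha-3, were scarce. Their genes lie 28810 bases apart on chromosome 9. Col6a4 had 0.122, 0.218 and 0.0791 CPM in 6 h vehicle and 0.832, 1.01 and 1.13 CPM in 6 h drug, and rose by 2.77 ± 0.61 (adjusted p = 0.0034). It met the minimum of reads only with the 6 h drug libraries counted, so this difference follows in part from how members were chosen. Col6a5 had no read in any vehicle library at 6 or 12 h and its 6 h difference follows in part from how members were chosen. Its 6 h drug libraries held 0.529, 0.313 and 0.340 CPM, at least 12.2-fold higher than a floor of 3 reads over the vehicle group (adjusted p = 0.0022). Its 12 h drug libraries held 0.357 and 0.370 CPM, at least 5.62-fold higher (adjusted p = 0.021), though that call was lost without each of the 4 libraries in turn (adjusted p 0.079 to 0.16).

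**Figure D4:**
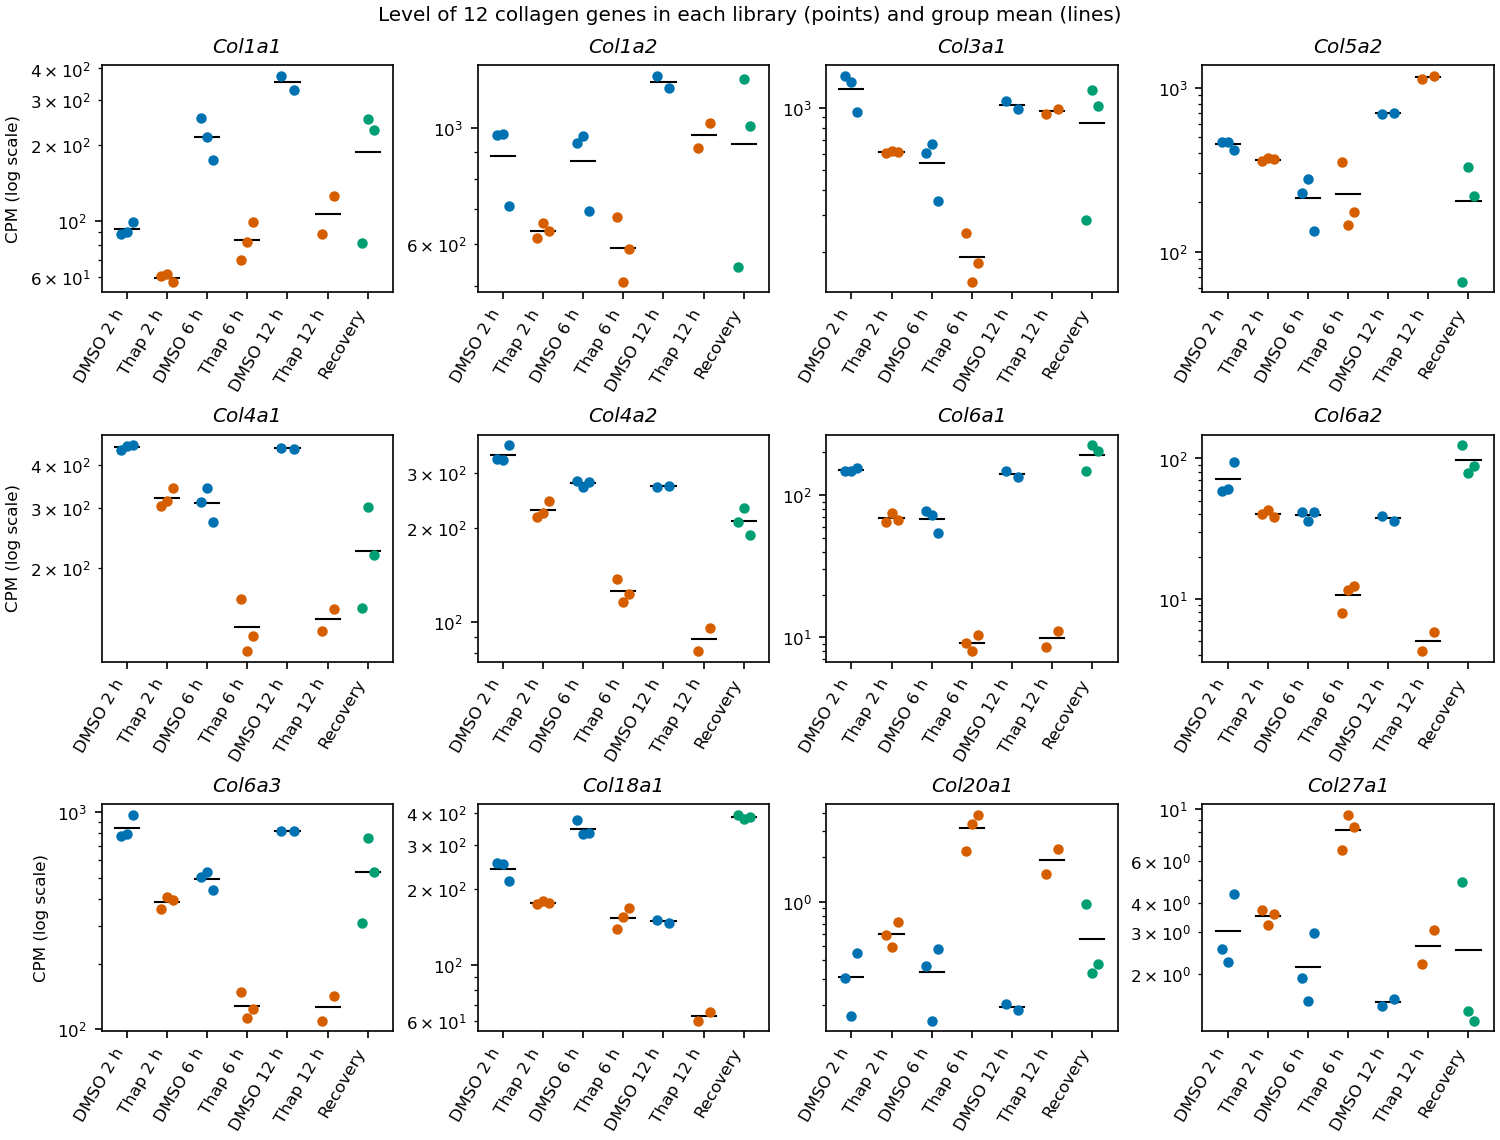
CPM on a log scale of 12 collagen genes in every library (points) with the mean of each of the 7 groups (lines). Col6a1 lies at 7.99 to 10.3 CPM in the 6 h drug libraries, below the 54.2 to 76.9 CPM of 6 h vehicle and the 147 to 225 CPM of recovery.

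Of the 8 network-forming chains, the basement membrane pair Col4a1 and Col4a2 and the type VIII chain Col8a1 fell at 6 and 12 h. Network counts were 0 higher and 1 lower at 2 h, 1 higher and 3 lower at 6 h, and 0 higher and 3 lower at 12 h. Col4a1 had 312, 343 and 273 CPM in 6 h vehicle and 163, 114 and 126 CPM in 6 h drug. The 12 h libraries held 451 and 448 CPM against 131 and 151 CPM. Its libraries did not overlap, and it fell by 1.20 ± 0.22 (adjusted p = 0.00088) and by 1.67 ± 0.27 (adjusted p = 0.00053).

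Col4a2 had 331, 330 and 368 CPM in 2 h vehicle and 217, 224 and 244 CPM in 2 h drug, and fell by 0.59 ± 0.15 (adjusted p = 0.032). That 2 h call was lost on leaving out any of the 6 libraries (adjusted p 0.054 to 0.16). At 6 h it had 283, 271 and 280 CPM in vehicle and 138, 116 and 123 CPM in drug. It fell by 1.15 ± 0.15 (adjusted p = 4.8e-05) at 6 h and by 1.62 ± 0.18 (adjusted p = 2.1e-05) at 12 h, where it had 271 and 272 CPM against 80.9 and 95.7 CPM. The mean log2 ratio of Col4a1 to Col4a2, each taken per kilobase of transcript, was 0.11 in vehicle and 0.05 in drug at 6 h. At 12 h it was 0.69 and 0.64. In the recovery libraries it was -0.50, 0.35 and 0.15.

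Col8a1, a short-chain collagen of vessel walls and the cornea, had 42.7, 54.5 and 29.7 CPM in 6 h vehicle and 17.5, 9.48 and 10.6 CPM in 6 h drug. It fell by 1.75 ± 0.36 (adjusted p = 0.0025) at 6 h and by 2.10 ± 0.44 (adjusted p = 0.0048) at 12 h, the latter call being lost without drug replicate 2 (adjusted p = 0.079). Its partner Col8a2 was listed at 0.0305, 0.156 and 0 CPM in 6 h vehicle and at 0.655, 0.417 and 0.283 CPM in drug, and rose by 2.73 ± 0.92 (adjusted p = 0.033). Leaving out vehicle replicate 1 or 3 or drug replicate 1 or 2 ended that call, and without vehicle replicate 2 the difference was 4.43 (adjusted p over the omissions 0.013 to 0.13). Col4a5, another basement membrane chain, had 17.4 and 17.6 CPM in 12 h vehicle and 9.12 and 9.29 CPM in drug, a difference of -0.93 ± 0.72 that missed the threshold (adjusted p = 0.52). Col4a4, Col4a6 and Col10a1 had group means of 1.21 CPM or less and no call in drug against vehicle.

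Fibrillar chains divided: Col1a1 fell at 6 and 12 h and Col3a1 at 6 h, while Col1a2 and Col5a2 passed the test at no time. Fibrillar counts were 3 higher and 2 lower of 11 at 6 h and 1 higher and 3 lower at 12 h, with 0 called at 2 h. Type I collagen joins the chains of Col1a1 and Col1a2. Col1a1 had 254, 215 and 174 CPM in 6 h vehicle and 70.2, 82.3 and 98.7 CPM in 6 h drug. After 12 h the levels were 375 and 329 CPM against 88.3 and 125 CPM. Vehicle and drug libraries were apart, and Col1a1 fell by 1.36 ± 0.30 (adjusted p = 0.0045) and by 1.72 ± 0.37 (adjusted p = 0.0059). The 12 h call was lost without vehicle replicate 1 (adjusted p = 0.051) and without drug replicate 1 (adjusted p = 0.11).

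Col1a2 had 937, 968 and 696 CPM in 6 h vehicle and 678, 509 and 587 CPM in drug, a difference of -0.55 ± 0.26 (adjusted p = 0.15). At 12 h it had 1261 and 1195 CPM in vehicle and 916 and 1024 CPM in drug, a difference of -0.34 ± 0.31 (adjusted p = 0.61). Libraries did not overlap at either time, but neither difference passed the test. The mean log2 ratio of Col1a1 to Col1a2, each taken per kilobase of transcript, was -2.17 in vehicle and -2.97 in drug at 6 h. At 12 h it was -1.95 and -3.35. For Col6a1 over Col6a2, also per kilobase, it was 1.02 and 0.06 at 6 h, and 2.17 and 1.24 at 12 h. These ratios therefore differ from ratios of the CPM values given for the genes. An exact two-sided permutation test of the ratios cannot go below p = 0.1 with 3 against 3 libraries or 0.333 with 2 against 2. Over the 15 ratio tests the smallest adjusted p was 0.375.

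Col3a1, the type III chain of elastic tissues, had 606, 668 and 354 CPM in 6 h vehicle and 246, 143 and 176 CPM in 6 h drug. It fell by 1.53 ± 0.39 (adjusted p = 0.011), a call lost without drug replicate 2 (-1.36, adjusted p = 0.051). At 2 h it had 1439, 1337 and 954 CPM against 606, 619 and 608 CPM, a difference of -1.02 ± 0.39 (adjusted p = 0.18). By 12 h, vehicle held 1079 and 991 CPM and drug 935 and 992 CPM, a difference of -0.10 ± 0.48 (adjusted p = 0.95). Libraries were apart at 2 and 6 h and close together at 12 h. The change of its response from 6 to 12 h, 1.42 ± 0.62, did not pass the test (adjusted p = 0.56).

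Of the type V chains, which set fibril diameter, Col5a1 and Col5a3 fell at 12 h, and Col5a2 was called at no drug time. Col5a1 had 380, 370 and 308 CPM in 6 h vehicle and 315, 243 and 279 CPM in drug, a difference of -0.34 ± 0.19 (adjusted p = 0.24). Its 12 h libraries held 432 and 402 CPM against 226 and 254 CPM, and it fell by 0.80 ± 0.23 (adjusted p = 0.033), a call lost without any of the 4 libraries (adjusted p 0.13 to 0.26). Col5a2, which lies 24614 bases from Col3a1 on chromosome 1, had 229, 276 and 133 CPM in 6 h vehicle and 351, 146 and 174 CPM in drug. These libraries overlapped, and the difference was 0.07 ± 0.43 (adjusted p = 0.94). At 12 h Col5a2 had 692 and 702 CPM in vehicle and 1124 and 1188 CPM in drug, a difference of 0.73 ± 0.53 that missed the threshold (adjusted p = 0.48). Col5a3 had 61.1 and 49.6 CPM in 12 h vehicle and 22.3 and 26.5 CPM in drug and fell by 1.18 ± 0.25 (adjusted p = 0.0048). Its call was lost without vehicle replicate 1 (adjusted p = 0.065) and drug replicate 1 (adjusted p = 0.077), and its 6 h difference was 0.34 with no call.

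Per kilobase of transcript, Col1a2 was the highest member in vehicle at 6 h, with 162 ± 27.9 CPM per kb (SD, n = 3), followed by Col3a1 with 97.6 ± 29.9 and Col18a1 with 62.2 ± 4.6. Col6a3 at 48.7 ± 4.85, Col4a1 at 46.7 ± 5.37, Col4a2 at 43.1 ± 0.99 and Col5a1 at 42.0 ± 4.64 came next and were within their spreads of each other. In drug at 6 h Col1a2 stayed first with 111 ± 15.8 CPM per kb, and Col3a1 with 33.9 ± 9.5, Col5a2 with 33.8 ± 16.8 and Col5a1 with 33.2 ± 4.28 did not differ beyond their spread. At 12 h with drug, Col1a2 at 181 ± 14.3, Col5a2 at 175 ± 6.81 and Col3a1 at 173 ± 7.29 CPM per kb stood within their spreads, and the next was Col5a1 with 28.5 ± 2.36 (n = 2). At 2 h in vehicle Col3a1, at 223 ± 45.9, and Col1a2, at 166 ± 28.2, led, their ranges touching.

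Of the scarce fibrillar chains, Col2a1, Col11a2 and Col27a1 rose at 6 h and Col2a1 at 12 h. Col2a1, the main cartilage collagen, had 0.122, 0.0311 and 0 CPM in 6 h vehicle and 0.983, 1.25 and 1.81 CPM in 6 h drug. It rose by 4.55 ± 1.0 (adjusted p = 0.0026), and by 6.01 without vehicle replicate 1. At 12 h it had no read in vehicle and 0.408 and 0.509 CPM in drug, at least 7.12-fold higher (adjusted p = 0.025), a call lost without any of the 4 libraries (adjusted p 0.068 to 0.17). Col11a2, a chain of type XI fibrils, had 3.02, 3.86 and 4.31 CPM in 6 h vehicle and 6.86, 6.46 and 9.04 CPM in drug, with no overlap. It rose by 0.999 ± 0.274 (adjusted p = 0.015), a call lost without vehicle replicate 1 (0.87, adjusted p = 0.080) or drug replicate 3 (0.84, adjusted p = 0.078). Col27a1, another cartilage fibril chain, had 1.92, 1.53 and 2.97 CPM in 6 h vehicle and 6.68, 9.48 and 8.39 CPM in drug and rose by 1.94 ± 0.43 (adjusted p = 0.0047). Its 12 h drug libraries held 2.19 and 3.05 CPM and vehicle 1.46 and 1.57 CPM. Col11a1 and Col24a1 had no call in drug against vehicle. Summed levels of 5 chondrocyte markers were 97.6 to 163 CPM in 6 h vehicle and 29.5 to 36.7 CPM in 6 h drug. Acan and Matn1 were at 0 in vehicle, and no marker of the list was at 0 in drug. Of the 3 tested, 1 was called higher and 1 lower at 6 h, beside 13.0% and 8.79% of all genes.

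Among the 11 other chains, 3 rose and 2 fell at 6 h, and 1 rose and 5 fell at 12 h. Col18a1, the multiplexin whose C-terminal fragment is endostatin, had 378, 331 and 335 CPM in 6 h vehicle and 139, 155 and 169 CPM in drug. After 12 h the levels were 151 and 148 CPM against 60.4 and 65.5 CPM. The libraries were apart, and it fell by 1.17 ± 0.14 (adjusted p = 3.1e-05) and by 1.25 ± 0.18 (adjusted p = 0.00018). The other multiplexin, Col15a1, was at 0.482 CPM or less in every library, and its 6 h difference was 1.496 ± 0.982 (adjusted p = 0.30).

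Col12a1, a fibril-associated chain of tendon and muscle connective tissue, had 18.01, 22.3 and 9.81 CPM in 6 h vehicle and 31.0, 11.2 and 15.5 CPM in 6 h drug, which overlapped (0.20 ± 0.41, adjusted p = 0.79). At 12 h it had 219 and 204 CPM in vehicle and 68.6 and 69.3 CPM in drug and fell by 1.62 ± 0.50 (adjusted p = 0.046), a call lost without any of the 4 libraries (adjusted p 0.15 to 0.23). Col16a1, another fibril-associated chain, had 34.0 and 32.1 CPM in 12 h vehicle and 13.6 and 16.7 CPM in drug. It fell by 1.12 ± 0.23 (adjusted p = 0.0033), a call lost without drug replicate 1 (adjusted p = 0.070).

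Col7a1, which forms anchoring fibrils, had 25.2 and 21.6 CPM in 12 h vehicle and 9.33 and 13.2 CPM in drug and fell by 1.06 ± 0.29 (adjusted p = 0.023). That call was lost without vehicle replicate 1 (adjusted p = 0.16), vehicle replicate 2 (0.065) or drug replicate 1 (0.24). Col17a1, a transmembrane collagen of hemidesmosomes, had 6.26, 4.76 and 4.39 CPM in 6 h vehicle and 2.27, 2.01 and 2.35 CPM in drug. It fell by 1.21 ± 0.21 (adjusted p = 0.00073) at 6 h and by 1.02 ± 0.29 (adjusted p = 0.026) at 12 h, the latter call lost without any of the 4 libraries (adjusted p 0.069 to 0.26).

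The others that rose at 6 h were scarce. Col20a1, a fibril-associated chain, had 0.366, 0.156 and 0.474 CPM in 6 h vehicle and 2.19, 3.37 and 3.88 CPM in drug, and rose by 3.24 ± 0.48 (adjusted p = 0.00022). At 12 h it had 0.203 and 0.184 CPM against 1.53 and 2.27 CPM and rose by 3.27 ± 0.66 (adjusted p = 0.0028). Its groups were apart at both times, and both calls held under every alternative run. Col9a3, a type IX chain of cartilage, rose by 2.17 ± 0.42 (adjusted p = 0.0016) at 6 h, and Col23a1, a transmembrane collagen, by 2.46 ± 0.81 (adjusted p = 0.030). The Col23a1 call was lost without vehicle replicate 2 or 3 or drug replicate 2 or 3, and its difference was 3.53 without vehicle replicate 1 (adjusted p over the omissions 0.021 to 0.10). Col14a1 and Col22a1 had no call at any drug time.

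The responses at successive times were compared through the test of their difference, in which successive comparisons share the 6 h groups. From 2 to 6 h, 1 member's response was higher and 1 lower, beside 2.12% and 1.87% of all genes, these being Col2a1 (4.91 ± 1.31, adjusted p = 0.040) and Col6a1. From 6 to 12 h, 0 were higher and 2 lower, beside 0.0388% and 0.532% of all genes. These were Col5a3 (-1.53 ± 0.32, adjusted p = 0.047) and Col16a1 (-1.52 ± 0.29, adjusted p = 0.023). The Col6a1 difference held on leaving out each library and was lost with total-count scaling (adjusted p = 0.058). Those of Col5a3 and Col16a1 were each lost without any 1 of the 10 libraries but 6 h drug replicate 1 (adjusted p up to 0.33 and 0.25). The Col2a1 difference was lost without any of 9 of its 12 libraries, the exceptions being 2 h vehicle replicate 3, 6 h vehicle replicate 1 and 6 h drug replicate 1 (adjusted p up to 0.12).

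After 48 h without drug, abundant chains led by Col6a1, Col6a2, Col3a1 and Col6a3 were higher than in 6 h drug. Scarce chains such as Col2a1, Col20a1 and Col27a1 were lower. Recovery was compared with 6 h drug and with 6 h vehicle, and these comparisons share groups with each other and with the 6 h drug response. Against 6 h drug, 10 members were higher and 8 lower, beside 11.6% and 13.9% of all genes. The median log2 difference was -0.08, beside 0.04 over all genes, and 0.15 with only these groups filtered and fitted. Among members at or above 5 CPM, 9 were higher and 0 lower, and among scarcer members 1 was higher and 8 lower. Col6a4 and Col6a5, among these 8, met the minimum of reads only with the 6 h drug libraries counted. Their lower level in recovery therefore follows in part from how members were chosen. The shares of all genes were not split by level here either. By type, 2 fibrillar, 3 network, 3 type VI and 2 other chains were higher, and 3, 1, 2 and 2 were lower. Without recovery replicate 1, the library of high mitochondrial share, 13 were higher and 8 lower. A fit of recovery and 6 h drug alone called 4 higher and 3 lower, and with total-count scaling Col1a1, Col4a1, Col4a2 and Col8a1 lost their calls (adjusted p 0.077 to 0.27). With length and GC offsets, 8 were higher and 11 lower, and 15 of the 18 main calls were kept.

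Col6a1 had 147, 225 and 205 CPM in recovery, above all 3 libraries of 6 h vehicle (54.2 to 76.9 CPM) and of 6 h drug. It was 4.39 ± 0.19 log2 units higher than in 6 h drug (adjusted p = 5.2e-09) and 1.505 ± 0.191 higher than in 6 h vehicle (adjusted p = 0.0024). Col6a2 had 125, 78.4 and 88.4 CPM, 3.19 ± 0.23 higher than in 6 h drug (adjusted p = 4.7e-07) and 1.30 ± 0.23 higher than in 6 h vehicle (adjusted p = 0.024). These were the 2 members higher in recovery than in 6 h vehicle, with 0 lower, beside 0.205% and 0.122% of all genes. The Col6a2 call against vehicle was lost without any of the 3 vehicle libraries (adjusted p 0.098 to 0.15), and both were lost with total-count scaling and in a fit of these groups alone. In the vehicle groups, Col6a1 had 133 to 156 CPM at 2 and 12 h. Its recovery level was above vehicle at 6 h in all libraries. Only recovery replicate 1, the library of high mitochondrial share, overlapped vehicle at 2 and 12 h, with 147 CPM. Replicates 2 and 3, with 225 and 205 CPM, lay above every vehicle library. Recovery was not tested against vehicle at 2 or 12 h.

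Col6a3 had 310, 760 and 529 CPM in recovery, 2.06 ± 0.25 log2 units higher than in 6 h drug (adjusted p = 3.5e-05) and 0.12 ± 0.25 from 6 h vehicle (adjusted p = 0.96). Col3a1 had 285, 1226 and 1020 CPM, with replicate 1 far below the others, and was 2.16 ± 0.39 higher than in 6 h drug (adjusted p = 0.0010), or 2.57 without replicate 1. Col1a1 had 81.8, 253 and 228 CPM, replicate 1 lying within the drug range, and was 1.16 ± 0.30 higher (adjusted p = 0.011). Replicate 1 was thus lowest of the recovery libraries for these fibrillar chains and highest for Col6a2. High minus low GC transcripts gave 1.71 log2 units in replicate 1, the highest of the 19 libraries, and 0.21 and 0.63 in replicates 2 and 3. Whether the mitochondrial share, the length trend of -1.60 or the GC trend of replicate 1 bears on these values was not tested. The fits with length and GC offsets and those without this library are the only ones that touch on it.

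Col18a1 had 396, 381 and 385 CPM in recovery, the closest replicates of the panel in that group, and was 1.33 ± 0.14 higher than in 6 h drug (adjusted p = 8.8e-06). Against 6 h vehicle it did not overlap, but the difference of 0.16 ± 0.14 was not called (adjusted p = 0.81). Col4a1 had 152, 302 and 218 CPM and Col4a2 had 210, 231 and 191 CPM, higher than in 6 h drug by 0.74 ± 0.22 (adjusted p = 0.020) and 0.75 ± 0.15 (adjusted p = 0.0015). The Col4a1 call was lost without drug replicate 2 (adjusted p = 0.082) or 3 (0.073), or recovery replicate 2 (0.46, adjusted p = 0.098). Against 6 h vehicle, Col4a2 lay lower in all libraries, by a difference of -0.40 ± 0.15 that was not called (adjusted p = 0.36). Col8a1 and Col17a1 were 1.40 ± 0.36 and 1.16 ± 0.21 higher than in 6 h drug (adjusted p = 0.0095 and 0.00096). Col1a2, at 544, 1241 and 1008 CPM, missed the threshold (0.66 ± 0.26, adjusted p = 0.073).

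Col2a1 was at 0.161, 0 and 0 CPM in recovery, 2 reads in all, with a ratio to 6 h drug of 0.0162 (95% exact interval for counting error 0.00194 to 0.0595; adjusted p = 0.0016). Col6a4 differed from 6 h drug by -3.74 ± 0.69 (adjusted p = 0.00061) and Col20a1 by -2.61 ± 0.47 (adjusted p = 0.0010). Col6a4 was at -4.56 without recovery replicate 2. Col27a1 had 4.91, 1.38 and 1.26 CPM in recovery, replicate 1 being above every 6 h vehicle library, and differed from 6 h drug by -1.76 ± 0.43 (adjusted p = 0.0083), or -2.63 without replicate 1. Col11a2 had 5.15, 3.0 and 2.85 CPM and differed by -1.04 ± 0.27 (adjusted p = 0.011), a call lost without drug replicate 3 (adjusted p = 0.060) or recovery replicate 3 (0.053). Col9a3 differed by -1.57 ± 0.41 (adjusted p = 0.011), or -1.24 (adjusted p = 0.061) without drug replicate 2.

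Calls of Col6a5 (-2.83 ± 0.92, adjusted p = 0.028) and Col4a4 (-2.86 ± 0.99, adjusted p = 0.034) against 6 h drug rested on few reads. Col6a5 was lost without drug replicate 1 or 3 or recovery replicate 2, with an adjusted p of up to 0.085, and was at -4.23 without recovery replicate 3. Col4a4 was lost without drug replicate 2 or 3 or recovery replicate 1 or 3, with an adjusted p of up to 0.10, and was at -7.05 without recovery replicate 2.

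The vehicle groups also differed from each other in collagen levels. From 2 to 6 h, 6 members were higher and 13 lower, beside 24.6% and 25.0% of all genes. From 6 to 12 h, 8 were higher and 6 lower, beside 18.7% and 16.8% of all genes. Col12a1 had 112, 99.9 and 139 CPM in vehicle at 2 h, 18.01, 22.3 and 9.81 CPM at 6 h, and 219 and 204 CPM at 12 h. The 3 times did not overlap, with differences of -2.81 ± 0.41 and then 3.66 ± 0.45. Col5a2 was 469, 467 and 417 CPM at 2 h, with differences of -1.08 ± 0.43 and then 1.71 ± 0.48. The earlier Col5a2 call was lost on leaving out any of these 6 libraries but replicate 2 at 6 h (adjusted p up to 0.18), and the later one without replicate 3 at 6 h or either library at 12 h (up to 0.081). Col1a1 was 88.9, 90.2 and 98.5 CPM at 2 h and 174 to 254 CPM at 6 h, a difference of 1.21 ± 0.30. Col18a1 was 255, 253 and 216 CPM at 2 h, with differences of 0.53 ± 0.14 and then -1.22 ± 0.16. The first of these Col18a1 calls was lost with total-count scaling and with no filter (adjusted p 0.17 to 0.18). Muscle markers moved beside these members. In vehicle, 2 of the 6 myoblast and 3 of the 6 differentiating muscle markers fell from 2 to 6 h, beside 25.0% of all genes. From 6 to 12 h, 4 and 5 fell, beside 16.8%, and 0 were higher in either step. The summed myoblast markers were nevertheless higher in vehicle at 6 h, at 2058 to 3558 CPM, than at 2 h, at 1723 to 1979 CPM. At 12 h they summed to 554 to 579 CPM. The differentiating muscle markers summed to 45.2 to 89.0 CPM in 6 h vehicle and 10.6 to 11.0 CPM in 12 h vehicle. Their part in the collagen differences was not tested.

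These vehicle differences ran with GC content. The 6 members higher at 6 than at 2 h had transcripts of 58.9% to 62.9% GC, and the 13 lower members 46.8% to 59.1%. The 8 members higher at 12 than at 6 h had 46.8% to 56.7% GC, and the 6 lower members 57.0% to 62.9%. High minus low GC transcripts gave -0.73 to -0.41 log2 units in the 2 h libraries, 0.34 to 1.17 in 6 h vehicle and -0.88 to -0.54 at 12 h. With offsets for length and GC, the Col12a1 differences were -1.65 and 2.58, Col6a3 from 2 to 6 h was at -0.08 and Col5a2 at -0.26. Time in vehicle and the libraries' length and GC trends cannot be told apart. The GC trend was -0.62 to -0.57 in 2 h drug, against -0.73 to -0.41 in vehicle, and -0.22 to 0.84 in 6 h drug. At 12 h it was -0.60 to -0.57 in vehicle and -0.88 to -0.54 in drug, and the length trend was 0.66 to 0.67 in vehicle and 0.44 to 0.58 in drug, with no overlap. The part of these trends in the drug differences was not tested beyond the fits with length and GC offsets.

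**Figure D5:**
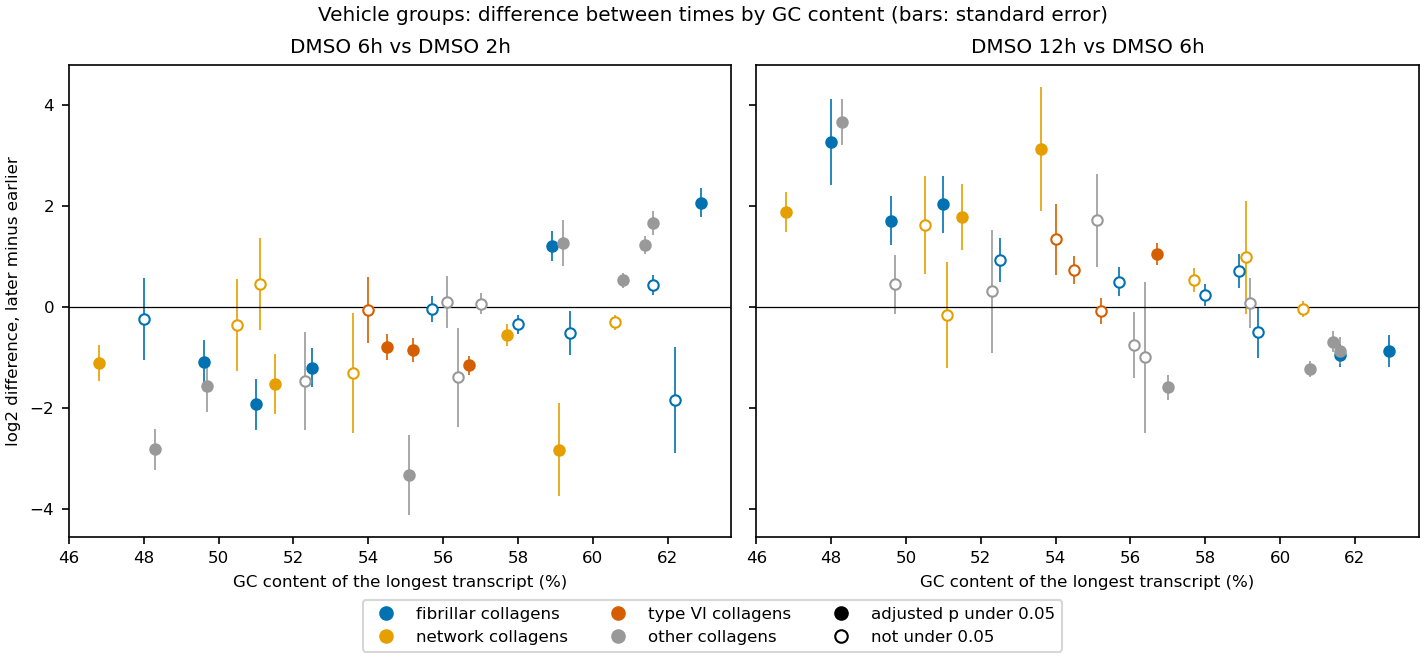
Log2 difference between vehicle groups, later minus earlier, for collagen genes against the GC content of the longest transcript (%), with standard errors. Genes with no read in a compared group are left out: Col6a5 in both panels and Col2a1 in the panel of 12 against 6 h. Members higher at 6 than at 2 h lie at 58.9% to 62.9% GC, and those higher at 12 than at 6 h at 46.8% to 56.7%.

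Genes that process and bind collagen were counted in lists. Of all tested genes, 3.01% were called higher and 1.51% lower at 2 h, and 13.0% and 8.79% at 6 h. At 12 h the shares were 6.29% and 6.77%, and for recovery against 6 h drug 11.6% and 13.9%. The counts of every list below stand beside these shares, and no list was tested as a set. Of 18 genes of procollagen modification in the endoplasmic reticulum, 0 rose and 1 fell at 2 h, 2 rose and 5 fell at 6 h, and 4 rose and 2 fell at 12 h. P3h4, a partner of the lysyl hydroxylase complex, fell by 0.77, 1.73 and 2.36 log2 units, while P3h2, a prolyl 3-hydroxylase, rose by 1.72 at 6 h and P3h1, another one, by 2.03 at 12 h. Of 13 genes of procollagen cleavage and crosslinking, 0 rose at any time, and 0, 6 and 7 fell. Loxl3, a lysyl oxidase, fell by 2.47 at 6 h and Loxl2 by 2.53 at 12 h, and Pcolce2, an enhancer of procollagen cleavage, fell by 1.16 and 2.68. In recovery against 6 h drug, 7 of the 13 were higher and 0 lower, led by Loxl3 at 2.52 and Loxl1 at 1.49. In the modification list, 5 were higher and 3 lower, led by P3h4 at 1.60 and Plod1, a lysyl hydroxylase, at 1.20.

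Of 9 fibril-binding matrix genes, 1 fell at 2 h, 1 rose and 4 fell at 6 h, and 2 fell at 12 h. Ogn, a small leucine-rich proteoglycan, fell by 2.09 at 2 h. At 6 h Tnxb, a tenascin, rose by 3.65 and the proteoglycan Prelp fell by 3.20. Thbs2, a thrombospondin, fell by 2.40 and fibronectin, Fn1, by 1.39 at 12 h. In recovery 5 were higher and 1 lower than in 6 h drug, including Prelp at 3.79 and Ogn at 3.05.

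Of 7 collagen receptors, 0 rose and 1 fell at 2 h, 2 rose and 2 fell at 6 h, and 2 rose and 1 fell at 12 h. Mrc2, the receptor that takes collagen up for degradation, fell by 1.22, 2.93 and 3.07, and Itga11, a collagen-binding integrin, rose by 1.99 at 6 h and 2.30 at 12 h. In recovery Mrc2 was 3.40 and Itga10 1.78 higher than in 6 h drug, where 2 receptors were higher and 2 lower. Of 13 matrix proteases and inhibitors, 0 rose and 1 fell at 2 h, 2 rose and 5 fell at 6 h, and 1 rose and 5 fell at 12 h. The fall at 2 h was that of Mmp14, at -0.99. Mmp13, a collagenase, rose by 3.45 at 6 h and 5.39 at 12 h, Timp3, an inhibitor, fell by 2.64 at 12 h, and Mmp9, a gelatinase, was called higher at 6 h with all vehicle libraries listed at 0. In recovery 6 were higher and 2 lower, with Mmp13 at -5.57 and Mmp9 at -3.95.

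Of 16 other basement membrane genes, 0 rose and 4 fell at 2 h, 5 rose and 4 fell at 6 h, and 2 rose and 1 fell at 12 h. Hspg2, encoding perlecan, and Agrn, encoding agrin, fell by 1.65 and 1.53 at 2 h. At 6 h Nid1, which links laminin to type IV collagen, fell by 2.96 and the laminin chain Lama1 rose by 2.89, and at 12 h the laminin chains Lamb3 and Lama1 rose by 1.92 and 1.39. In recovery 5 were higher and 5 lower, including Nid1 at 2.94 and Lamc3 at -2.20. Of 13 genes of TGF-beta signalling, a known inducer of collagen genes, 2 rose and 0 fell at 2 h, 3 rose and 5 fell at 6 h, and 0 rose and 4 fell at 12 h. Smad7 and Skil, feedback inhibitors of the pathway, rose by 1.74 and 1.27 at 2 h, Skil rose by 1.82 and Tgfb3 fell by 1.79 at 6 h, and the target Ccn2 fell by 2.54 and Tgfb3 by 1.89 at 12 h. In recovery 3 were higher and 4 lower than in 6 h drug, with Tgfb2 at -1.96 and Skil at -1.95. Ccn2, at -2.27, was the 1 gene of these 7 lists that differed between recovery and 6 h vehicle.

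Marker lists of other cell types gave these summed levels beside the 6 h changes. Fibroblast and fibro-adipogenic markers, 6 genes, ran from 284 to 343 CPM in vehicle and 90.4 to 168 CPM in drug, with Tcf21 at 0. Of the 4 tested, 1 was called higher and 1 lower, beside 13.0% and 8.79% of all genes. In the other lists of this paragraph, 3 of 3 tested endothelial, 2 of 3 epithelial, 1 of 2 adipocyte, 1 of 4 osteoblast and 1 of 3 macrophage markers were called higher, and 0 lower. Endothelial markers, 5 genes, summed to 0.514 to 0.610 CPM in vehicle, with Tie1 at 0, and 2.64 to 4.92 CPM in drug. Epithelial markers, also 5, ran from 0.685 to 2.61 CPM in vehicle and 13.4 to 24.4 CPM in drug, with Epcam at 0 in both and Krt5 at 0 in vehicle. Adipocyte markers, 4 genes, summed to 10.6 to 18.2 CPM in vehicle, with Adipoq at 0, and 52.0 to 72.5 CPM in drug. The 5 osteoblast markers held 43.0 to 56.2 CPM and 43.3 to 58.3 CPM, with Ibsp at 0. Macrophage markers summed to 6.66 to 9.49 CPM and 4.13 to 5.64 CPM, with Adgre1 at 0. At 12 h the fibroblast sum was 388 to 400 CPM in vehicle and 109 to 128 CPM in drug, and the chondrocyte sum 61.7 to 61.9 CPM and 12.3 to 13.4 CPM. Of 4 fibroblast markers tested, 1 was called higher and 1 lower at 12 h. Of 3 chondrocyte markers, 0 were higher and 1 lower, beside 6.29% and 6.77% of all genes. Adipocyte markers then summed to 12.1 to 13.7 CPM and 14.1 to 14.4 CPM, and endothelial ones to 0.527 to 0.830 CPM and 2.17 to 2.24 CPM. The epithelial sum was 0.461 to 1.30 CPM and 1.22 to 1.90 CPM, and the macrophage sum 4.86 to 5.26 CPM and 3.52 to 3.98 CPM. The osteoblast sum was 69.3 to 70.5 CPM and 55.2 to 55.8 CPM. In 12 h vehicle, Tcf21, Matn1, Alpl, Ibsp, Cdh5, Pecam1, Tie1, Epcam, Krt18, Krt5, Adgre1, Adipoq and Plin1 were at 0, and in 12 h drug Tcf21, Epcam, Adgre1, Adipoq and Plin1. The part of these genes in the collagen changes was not tested.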

How the data were processed

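Polyadenylated RNA of 19 C2C12 libraries in 7 groups was analysed. Values are raw read counts per gene as deposited, on mm10; per the submitters' processing notes the tools were Trim Galore, STAR 2.5.3a, bedtools 2.31.0 and DESeq2. Not given in the sources used here were the counting settings, strand and annotation. Of the 55401 gene IDs, 55141 matched GENCODE M21 (GRCm38), 54349 of them with the same version.

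Counts were filtered with filterByExpr, scaled by TMM and fitted over 7 group means with edgeR 4.0.16 (quasi-likelihood F-test; R 4.3.3), giving 18039 tested genes with Benjamini-Hochberg adjustment. The same model was tested on simulated data. CPM values were computed here from the deposited counts. SE values come from the fit. Fold changes are fitted log2 values, except that a gene with no read in a group is set against a floor of 3 reads over the group, and intervals and floors cover counting error only. CPM per kb and the chain ratios use the length of the longest GENCODE transcript. Sequences are RefSeq's.

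The members and all gene lists were chosen with earlier results of these data known. Values per library are given for 13 panel genes (Col1a1, Col1a2, Col3a1, Col5a1, Col5a2, Col4a1, Col4a2, Col6a1, Col6a2, Col6a3, Col12a1, Col15a1, Col18a1) and the 2 highest and 2 lowest called members with at least 5 CPM in each drug or recovery comparison; values per library of other members were added after they were seen. For other lists, the 2 called genes of largest difference are named. Alternatives were DESeq2 1.42.0, other scalings, no filter, fewer groups, length and GC offsets, a replicate block, and leaving out libraries. No 2 libraries were identical.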

Additional observations from a re-analysis of the deposited data

Results flagged for a closer look

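For 4 members the response to thapsigargin differed between times by the test of the difference of the log2 responses (edgeR's quasi-likelihood test, Benjamini-Hochberg adjustment). Between 2 and 6 h, the difference was 4.91 ± 1.31 for Col2a1 (adjusted p = 0.040), which rests on few reads, and -1.76 ± 0.27 for Col6a1 (adjusted p = 0.0015). Between 6 and 12 h it was -1.53 ± 0.32 for Col5a3 (adjusted p = 0.047) and -1.52 ± 0.29 for Col16a1 (adjusted p = 0.023). Times also differ in the libraries' length and GC trends, whose part in these differences was not tested beyond the offsets among the alternatives.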

How the results depend on the processing

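Counts of called members kept to within 1.5 times at 6 h under every alternative run. Elsewhere they moved as follows. With total-count scaling they were 0 at 2 h, 11 at 12 h, 0 for recovery against 6 h vehicle, 0 for both response differences, 12 for vehicle at 6 against 2 h and 9 at 12 against 6 h. That scaling shifted the median of all genes by 0.21 at 2 h, 0.13 at 6 h, -0.17 for recovery against 6 h drug, -0.12 for the 12 h minus 6 h response and 0.29 for vehicle at 12 against 6 h. The share of calls that were higher then went from 66.5% to 90.7%, 59.6% to 71.3% and 45.4% to 32.9% in the first 3, and from 52.7% to 62.8% in the last. With DESeq2, counts were 5 at 2 h, 9 for the 6 h minus 2 h response and 4 for the 12 h minus 6 h response. Of 34137 genes in that fit, 2.86% were higher and 1.90% lower at 2 h. The response differences had 2.55% and 1.83%, then 0.275% and 0.958%. Fits of only the compared groups gave 7 at 2 h, 7 for recovery against 6 h drug, 0 against 6 h vehicle and 4 for the 6 h minus 2 h response. Of all genes they called 9.93% higher and 6.28% lower at 2 h, and 3.23% and 5.95% for recovery against 6 h drug. Against 6 h vehicle 0 genes were called, and for the response difference the shares were 3.40% and 2.74%. Without the libraries of high mitochondrial share counts were 6 at 2 h, and 13 and 5 for the response differences. Of all genes, 6.88% were then higher and 3.55% lower at 2 h. The response differences had 4.66% and 6.43%, then 1.13% and 2.98%. Length and GC offsets gave 8 for the 6 h minus 2 h response, beside 4.07% of all genes higher and 3.17% lower. They gave 11 and 8 for the vehicle comparisons, beside 17.2% and 19.4%, then 12.0% and 9.32%. The 12 h minus 6 h response had 1 with DESeq2-type size factors, beside 0.0998% and 0.588% of all genes. With no filter it had 0, beside 0.0117% and 0.223%. The shares of all genes thus moved with the counts of members.

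Same-numbered libraries deviated together in some pairs and in opposite ways in others. Of 52 pairs, 5 had a correlation over 0.1 (range -0.69 to 0.69), and 8 of 19 libraries correlated best with their own number. The highest was between replicates 2 of 6 h vehicle and recovery, and the lowest between replicates 2 of 6 h drug and recovery. With the replicate block, 1 member was called for recovery against 6 h vehicle, beside 0.144% of all genes higher and 0.0887% lower. For the 12 h minus 6 h response 0 were called, beside 0.0333% and 0.360%. The block with length and GC offsets gave 6 and 1 for the response differences, beside 3.08% and 2.59%, then 0.128% and 0.798%. It gave 11 and 7 for the vehicle comparisons, beside 15.3% and 17.4%, then 8.89% and 6.34%.

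Leaving out each library in turn gave 1 to 2 calls at 2 h, 17 to 18 at 6 h, 8 to 11 at 12 h, 14 to 21 for recovery against 6 h drug and 1 to 2 against 6 h vehicle. It gave 1 to 4 and 0 to 2 for the response differences, and 10 to 19 and 6 to 13 for the vehicle comparisons. Of 96 calls of a member in a comparison, 40 kept their call in every alternative and 0 reversed. By comparison, 13 of 19 kept it at 6 h, 7 of 17 at 12 h, 7 of 18 for recovery against 6 h drug and 0 of 3 at 2 h. The causes were not tested. The 12 h groups have 2 libraries each, so leaving out a 12 h library leaves that group without a replicate. Whether depth limits the calls of scarce members was not tested.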
